A study of Homo sapiens with 2 samples.

Results

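The genes described are 7 of the 54261 listed in the count table: PGLS, PGD, RPE, RPIA, TKT and TALDO1, which encode enzymes of the pentose phosphate pathway, and TIGAR, a phosphatase that feeds it. RPE was chosen for reads over one of its exons in these same libraries, which the study linked to SRSF2, and the other 6 were grouped with it by their place in the pathway, with gene-level results of these data already known. Those exon reads were not used here. All 7 passed the filter on low values, a mean of 1 or more CPM (counts per 1000000 counts of scaled library size), as did 12620 genes of the whole table. The samples were 2 cultures of RKO, an established human colorectal carcinoma cell line. One culture was transfected with the control siRNA siNC (si-NC) and the other with the siRNA siSRSF2 against the splicing factor SRSF2 (si-SRSF2), with no other treatment named, and RNA was taken 2 days later. Both groups are transient transfections of 1 cell line, and the knockdown rests on 1 siRNA.

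With 1 library for each siRNA, no difference had a replicate check, and no test across genes was run. The si-NC library held 19931360 counts and the si-SRSF2 library 14512802, and a gene with no counts could still lie as high as 3 counts, or 0.151 and 0.207 CPM. SRSF2, the targeted gene, had 1964 counts in the control and 713 after knockdown, which left 49.9% of the control CPM. Of the markers of colon epithelium, KRT8 (547 and 618 counts), KRT18 (632 and 477), CDX2 (212 and 158) and EPCAM (179 and 147) were detected, whereas KRT19, CDH1 and VIL1 had 1 to 10 counts in each library and KRT20 and LGR5 had 0. PTPRC, PECAM1 and COL1A1, markers of blood, endothelium and fibroblasts, had at most 13 counts, whereas VIM, a mesenchymal marker, had 558 and 383. KRT8 was higher in si-SRSF2 (log2 ratio 0.62, 95% interval 0.47 to 0.80), and its part in the results on the pentose phosphate genes was not tested.

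The pentose phosphate pathway branches from glycolysis at glucose 6-phosphate. Its oxidative arm reduces NADP to NADPH, the cell's reducing power for lipid synthesis and for glutathione, and ends in ribulose 5-phosphate. Its non-oxidative arm turns ribulose 5-phosphate into ribose 5-phosphate, from which nucleotides are made, and returns surplus carbon to glycolysis by reversible sugar exchanges. Proliferating tumour cells use both arms. TIGAR, first described as a p53-induced gene, removes the fructose bisphosphate that activates phosphofructokinase, and so favours the entry of sugar into the pathway.

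RPE, ribulose 5-phosphate 3-epimerase, has 16 annotated transcripts on chr2:210002565-210022260 (GRCh38, plus strand, GENCODE release 44). The question the study put to this gene was whether SRSF2 governs one of its exons, which it followed by RT-PCR with a pair of primers. The primer sequences locate that exon, and they are shown, 5' to 3', because gene counts cannot do so.

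RPE-F: tgaggacccagttcccatct
RPE-R: agggagatttcatgaacaggaaca

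Both primers were found in 8 of the 16 transcripts. The forward primer lies in exon 5 of the 6 exons of RPE-202, the MANE transcript, and the reverse primer in its last exon, where it starts 21 bases after the last coding base, in the 3' untranslated part. In RPE-202 they enclose a product of 241 bp. In RPE-205 the product was 310 bp, and the difference was 1 exon of 69 bp at chr2:210018153-210018221, exon 6 of the 7 exons of that transcript. RPE-205 was the only annotated transcript with this exon, and 7 transcripts joined its flanking exons directly. In the next lines the alternative exon is in capitals, with the last 20 intron bases before it and the first 6 after it in lower case (chr2:210018133-210018227), and the coding exon upstream of it (chr2:210017473-210017559) follows for comparison.

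Alternative exon: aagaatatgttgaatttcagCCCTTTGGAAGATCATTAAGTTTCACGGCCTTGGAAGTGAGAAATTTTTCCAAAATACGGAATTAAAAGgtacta
Upstream exon: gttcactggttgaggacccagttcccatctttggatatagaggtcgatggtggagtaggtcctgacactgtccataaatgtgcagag

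The exon is bounded by AG before and GT after it, the usual splice site bases, and lies 593 bp from the upstream exon and 1447 bp from the next. Its length is a multiple of 3, yet it does not simply add residues. The reading frame of RPE-202 enters it after 188 codons, runs for 21 codons and meets the stop codon TAA at base 64 of the exon, 3 bases before its end. The open reading frame with the exon thus had 209 codons before the stop, against 228 without it, and the 40 codons that RPE-202 reads in its last exon were replaced by 21. RPE-205 is annotated as protein coding.

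The exon was also searched, on the sense strand, for 4 words of the RNA motif that SRSF2 is known to bind, with overlapping matches counted. They were CCNG and GGNG, each a known core of that motif, then the mixed forms CGNG and also GCNG. None of the 4 words occurred in its 69 bases. Of 978 internal coding exons of exactly this length in canonical transcripts, 94.3% held at least 1 such word, with a median of 4, and 5.73% held none. The upstream exon held 5 words in 87 bases and the coding part of the downstream exon 6 in 120 bases. Guanine and cytosine made up 36.2% of the alternative exon, 49.4% of the upstream exon and 44.2% of the coding part downstream. A word that was not found says only that these letters are not in this window.

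**Figure D1:**
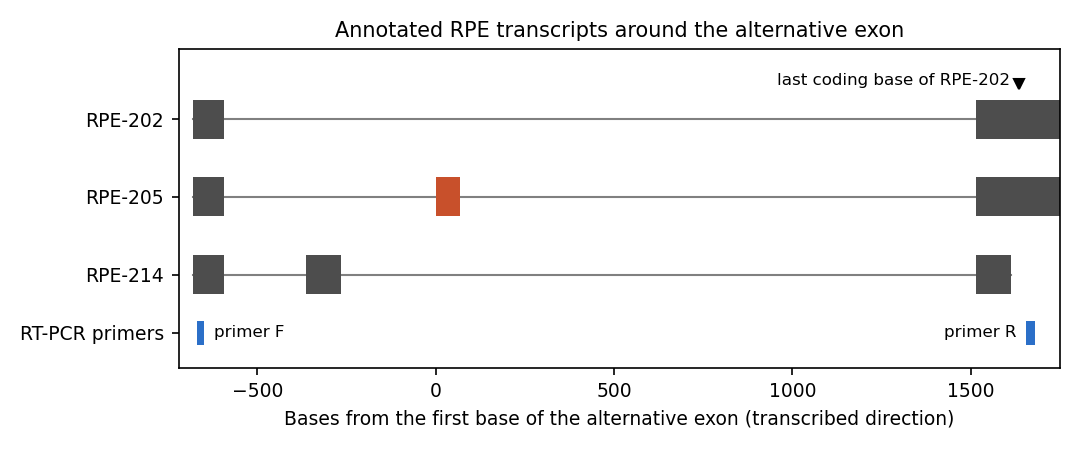
Annotated RPE transcripts around the alternative exon, in bases from its first base (x axis). Boxes are exons and lines introns, the alternative exon of 69 bp (orange) is present in RPE-205 and absent from RPE-202 and from RPE-214, which has a different exon in the preceding intron, blue boxes are the RT-PCR primers, and last exons that run past the right edge are drawn to that edge.

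The count table gives 1 number per gene, so it adds transcripts with and without the exon. RPE had 2613 counts in the control and 1785 after knockdown, or 131 and 123 CPM. Its total was therefore 93.8% of the control level (95% Clopper-Pearson interval 88.3% to 99.7%, which covers counting error only), a log2 ratio of -0.09 (-0.18 to -0.0049) with 0.5 CPM added to each level. The interval lay below no change by a small margin, and with upper-quartile factors it included no change (log2 ratio -0.07, -0.16 to 0.02). In these bulk libraries less RPE RNA per cell and fewer cells that express it cannot be told apart. KANSL1L, a gene on the opposite strand, overlaps 840 bp at the 3' end of RPE and had 125 and 74 counts, and how many RPE reads fell there was not tested. RPEL1, an intronless near copy of RPE, had 5 and 3 counts, the pseudogene RPEP4 had 1 and 8, RPEP3 had 2 and 1, and 4 further RPE pseudogenes had 0 in both libraries.

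For both enzymes of the oxidative arm, the interval of the difference included no change. PGLS (chr19:17511636-17521288) encodes 6-phosphogluconolactonase, which opens the lactone ring, and had 410 counts in the control and 271 after knockdown, the fewest of the 7 genes. Its level was 20.6 CPM in the control and 18.7 CPM after knockdown, a log2 ratio of -0.14 with an interval of -0.37 to 0.09. PGD (chr1:10398592-10420511), 6-phosphogluconate dehydrogenase, makes NADPH and ribulose 5-phosphate. It had 4457 and 3206 counts, or 224 and 221 CPM, and the log2 ratio of -0.02 (-0.08 to 0.05) turned to 0.01 with upper-quartile factors. The counting interval for PGD ran from 94.4% to 103% of the control level, and that for PGLS, with far fewer counts, from 77.6% to 106%. On the opposite strand PGLS is overlapped by 2 annotated long non-coding RNAs that were not used here, over 254 and 2236 bp.

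RPE and RPIA, the enzymes that share ribulose 5-phosphate as substrate, had log2 ratios of opposite sign, with the call on RPE dependent on the scaling as given above. RPIA (chr2:88691673-88750929), ribose 5-phosphate isomerase, supplies ribose for nucleotides and had 832 counts in the control and 685 after knockdown. Its level was 41.7 CPM in the control and 47.2 CPM after knockdown, 113% of the control (102% to 125%), a log2 ratio of 0.18 (0.03 to 0.32). The ratio of RPE counts to RPIA counts, which needs no library scaling, was 3.14 in si-NC (2.90 to 3.40) and 2.61 in si-SRSF2 (2.38 to 2.85). The change was -17.0%, a log2 change of -0.27 with an exact conditional interval of -0.44 to -0.10. With RPEL1 added to RPE the log2 change was again -0.27.

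**Figure D2:**
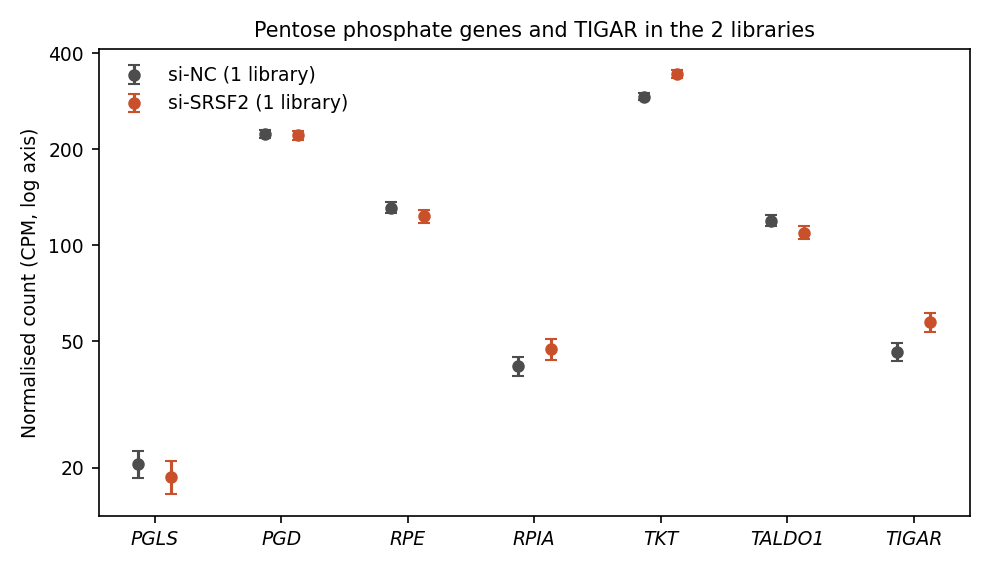
Normalised counts (CPM, log axis) of the 7 genes in si-NC (grey) and si-SRSF2 (orange), 1 library each, with 95% Poisson intervals as bars. TKT was highest and PGLS lowest in both libraries.

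The other enzymes of the non-oxidative arm, which exchange carbon units between sugar phosphates, also went opposite ways. TKT (chr3:53224712-53256052, minus strand), the transketolase that moves units of 2 carbons, had 5826 counts in the control and 4983 after knockdown. Its level was 292 CPM in the control and 343 CPM after knockdown, or 117% of the control (113% to 122%), a log2 ratio of 0.23 (0.18 to 0.29). TALDO1 (chr11:747415-765012), the transaldolase that moves units of 3 carbons, had 2378 and 1589 counts. Its level was 119 CPM in the control and 109 CPM after knockdown, 91.8% of the control (86.1% to 97.8%), a log2 ratio of -0.12 (-0.22 to -0.03). TALDO1 counts per TKT count were 0.408 in si-NC (0.389 to 0.428) and 0.319 in si-SRSF2 (0.301 to 0.337). The change was -21.9%, a log2 change of -0.36 (-0.46 to -0.25).

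TIGAR (chr12:4307763-4360028) had the highest log2 ratio of the 7 genes. It had 920 counts in the control and 830 after knockdown, or 46.2 and 57.2 CPM, 124% of the control (113% to 136%). The log2 ratio was 0.31 (0.17 to 0.45), and 87.5% of all genes tested had a lower one. Counts of TIGAR per count of PGD were 0.206 in the control and 0.259 after knockdown, a log2 change of 0.33 (0.17 to 0.48). Another annotated gene (ENSG00000285901) covers all of TIGAR on the same strand and was not used here, and whether the annotation behind the counts held it, and how reads were then divided, is unknown.

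In all, 5 ratios between members were computed, and in 4 of them the interval of the change lay on one side of 0. The fourth of these was RPE to TKT, which was 0.449 in the control and 0.358 after knockdown (log2 change -0.32, -0.43 to -0.22). For PGLS to PGD the log2 change was -0.12 with an interval of -0.36 to 0.11. These pairs share genes and were chosen with the gene-level values known. How often other pairs of genes have such an interval was not computed.

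**Figure D3:**
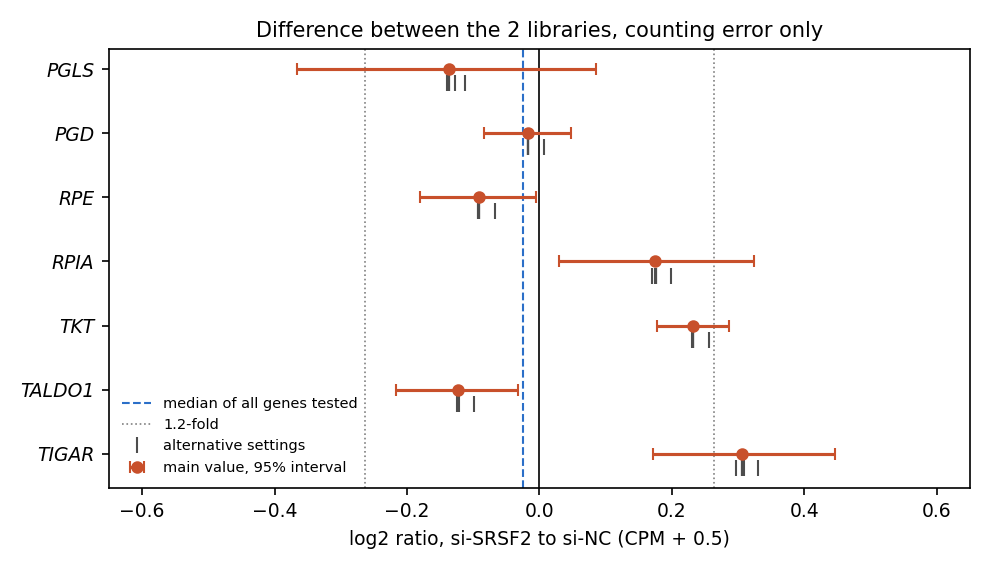
Log2 ratios of si-SRSF2 to si-NC for the 7 genes (orange points, 95% Clopper-Pearson intervals for counting error), with the values under alternative scalings and pseudocounts as ticks, 1.2-fold as dotted lines and the median of all genes tested as a dashed line. TIGAR alone lay past 1.2-fold, and over all settings the values of 1 gene spanned at most 0.0329.

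The members were read against all genes tested. With a fold of 1.2 as the call, 0 of the 7 genes were called lower, where 17.9% of all genes tested were, and 1 of 7, TIGAR, was called higher, where 14.9% were. When the whole interval had to pass 1.2-fold, 0 of 7 were called in either direction, against 5.08% of all genes lower and 4.66% higher. The interval lay wholly below no change for 2 of 7 (RPE and TALDO1), against 26.7% of all genes. With upper-quartile factors this held for 1 of 7 (TALDO1), and the share of all genes was not computed with those factors. With the main scaling the interval lay wholly above no change for 3 of 7 (RPIA, TKT and TIGAR), against 21.0%. The members' median log2 ratio was -0.02, that of PGD (0.01 with upper-quartile factors), beside -0.02 over all genes tested. Among the 7519 genes with a mean CPM in the range the members span, from 19.6 to 318, 14.4% were at least 1.2-fold lower and 9.30% at least 1.2-fold higher, and the quartiles of the log2 ratios were -0.17 and 0.11. RPE, PGD, PGLS and TALDO1 lay between these quartiles, and RPIA, TKT and TIGAR above them.

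Levels of different genes were compared per length, as CPM per kilobase of the canonical transcript. In si-NC, TALDO1 (99.5), PGD (98.6) and TKT (97.6) came first and could not be ordered, since their counting intervals overlapped. RPE followed with 41.2, then RPIA with 23.0 and PGLS with 20.4, and TIGAR was last with 5.62. In si-SRSF2, TKT was first with 115 (interval 111 to 118), PGD had 97.4 and TALDO1 91.3 with overlapping intervals, and the order from RPE down was as in si-NC. Per length, TKT, PGD and TALDO1 were above 94.5% to 95.8% of the 11225 tested genes that have 1 canonical transcript, and TIGAR was above 30.0% in si-NC and 36.2% in si-SRSF2. The low per-length value of TIGAR rests on a canonical transcript of 8209 bases, against 1008 for PGLS and 1199 for TALDO1. RPIA and PGLS also overlapped in si-NC, with intervals of 21.5 to 24.6 and 18.5 to 22.5, but not in si-SRSF2, where they were 24.1 to 28.1 and 16.4 to 20.9.

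Together the 7 genes took 0.0875% of all counts in si-NC (95% Clopper-Pearson interval 0.0862% to 0.0888%) and 0.0920% in si-SRSF2 (0.0904% to 0.0936%). Within their sum, TKT held 33.4% in si-NC (32.7% to 34.1%) and 37.3% in si-SRSF2 (36.5% to 38.2%). PGD held 25.6% and 24.0%, RPE 15.0% and 13.4%, and TALDO1 13.6% and 11.9%, each a smaller share in si-SRSF2. TIGAR held 5.28% and 6.22%, RPIA 4.77% and 5.13% and PGLS 2.35% and 2.03%. The shares add up to the whole, so a larger share of TKT lowers those of other members by construction.

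**Figure D4:**
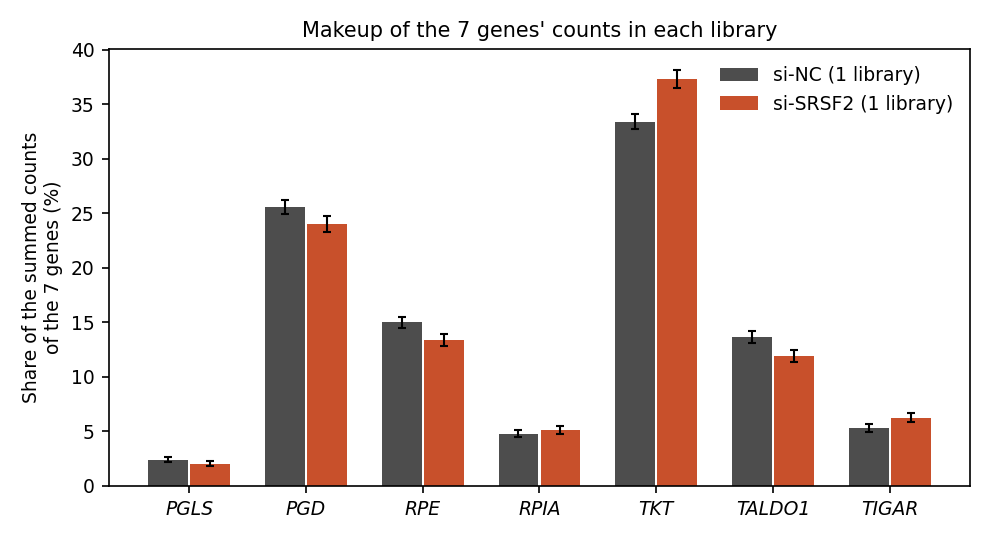
Share of each gene in the summed counts of the 7 genes (%), si-NC in grey and si-SRSF2 in orange, 1 library each, with 95% Clopper-Pearson intervals as bars. TKT takes 33.4% of the control sum and 37.3% of the knockdown sum, and TALDO1, PGD and RPE take less in si-SRSF2 than in si-NC.

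Further genes of the pathway and its side entries were lower in si-SRSF2. Of 9 listed, 5 passed the filter, and these 5 had an interval wholly below no change, as did 26.7% of all genes tested. At least 1.2-fold lower were 4 of the 5, against 17.9% of all genes, and the median log2 ratio was -0.38 beside -0.02 over all genes tested. PGM2, which converts ribose 1-phosphate to ribose 5-phosphate, had 2287 counts in the control and 1079 after knockdown, a log2 ratio of -0.62 (-0.73 to -0.52). H6PD, an enzyme of the oxidative arm inside the endoplasmic reticulum, had 896 and 433 counts and a log2 ratio of -0.58 (-0.76 to -0.42). PGM1, the phosphoglucomutase of glycogen metabolism, had 1127 and 631 counts and a log2 ratio of -0.38 (-0.52 to -0.24). DERA, deoxyribose phosphate aldolase, had -0.27, just past 1.2-fold, and SHPK, sedoheptulokinase, had -0.26, just short of it. The other 4 did not pass the filter: RBKS, ribokinase, had 30 counts in the control and 5 after knockdown, and TKTL1, TKTL2 and RPEL1 had at most 5 in either library.

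Of the genes that use ribose 5-phosphate for nucleotides, 22 of 23 listed were tested, with a median log2 ratio of 0.01. At least 1.2-fold lower were 2, against 17.9% of all genes tested, and 2 were at least 1.2-fold higher, against 14.9%. PPAT, the first committed enzyme of purine synthesis, had 2234 counts in the control and 1019 after knockdown, a log2 ratio of -0.67 (-0.78 to -0.57), and PRPSAP2, which binds the enzyme that activates ribose 5-phosphate, had -0.26 (-0.41 to -0.13). UMPS, of pyrimidine synthesis, had 0.39 (0.19 to 0.60) and ADSL, a later purine enzyme, 0.28 (0.16 to 0.42). PRPSAP2 lay just past 1.2-fold and IMPDH2, of the same list, just short of it with 0.26 (0.20 to 0.33). Both counts of genes past the fold thus rest on values at the cut, and they were not recomputed with other scalings. PRPS1 and PRPS2, the activating enzymes that take the product of RPIA, had log2 ratios of 0.16 (0.03 to 0.29) and -0.18 (-0.28 to -0.07).

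In glycolysis, the parent pathway, no gene tested reached 1.2-fold. Of 21 genes listed 19 were tested and 0 were past 1.2-fold in either direction, against 17.9% lower and 14.9% higher of all genes, and their log2 ratios ran from -0.10 for LDHB to 0.21 for ENO1 with a median of 0.02. The PFKFB enzymes make and remove the fructose bisphosphate that TIGAR acts on. PFKFB3 had a log2 ratio of 0.13 (0.07 to 0.19), PFKFB4 of -0.01 (-0.07 to 0.05) and PFKFB2 of -0.10 (-0.25 to 0.05), while PFKFB1 had 4 and 3 counts.

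Other makers and users of NADPH had a median log2 ratio of -0.11 over the 14 of 18 genes tested, beside -0.02 over all genes tested. Of these 14, 11 were below 0, as were 6790 of the 12620 genes tested. At least 1.2-fold higher were 2 and lower 2, against 14.9% and 17.9% of all genes tested. NADK, the kinase that makes NADP, had a log2 ratio of 0.37 (0.25 to 0.51), whereas ME2, a malic enzyme, had -0.32 (-0.40 to -0.23) and TXNRD2, mitochondrial thioredoxin reductase, -0.44 (-0.76 to -0.16). MTHFD2L, a mitochondrial folate enzyme, had 140 counts in the control and 252 after knockdown, a log2 ratio of 1.25 (1.002 to 1.61). It was the only gene past 2-fold among those tested in these lists.

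PGD, TKT and TALDO1 are known targets of the oxidative stress factor NRF2. Of 18 other NRF2 targets 14 were tested, 7 above 0 and 7 below, with a median log2 ratio of 0.01 (-0.03 with no filter on low counts). HMOX1, heme oxygenase, had a log2 ratio of 0.36 (0.29 to 0.44), FTL, ferritin light chain, of 0.28 (0.27 to 0.30) and NQO1, a quinone reductase, of 0.27 (0.14 to 0.40), so 3 of the 14 were at least 1.2-fold higher and 0 lower, against 14.9% and 17.9% of all genes tested.

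TIGAR was set beside 11 other p53 targets with metabolic roles. Their median log2 ratio was 0.12 (0.24 with a minimum mean of 5 CPM), with 4 at least 1.2-fold higher, against 14.9% of all genes tested, and 3 at least 1.2-fold lower, against 17.9%. RRM2B, a ribonucleotide reductase subunit, had 3047 counts in the control and 3956 after knockdown, a log2 ratio of 0.83 (0.77 to 0.90). FDXR, ferredoxin reductase, had 0.66 (0.49 to 0.85) and TP53INP1, a p53 cofactor, 0.41 (0.30 to 0.52). GLS2, the liver-type glutaminase, had -0.84 (-1.15 to -0.59), LPIN1, a phosphatidate phosphatase, -0.59 (-0.64 to -0.53), and PANK1, pantothenate kinase, -0.29 with an interval of -0.81 to 0.14. The value of TIGAR, 0.31, lay between these extremes.

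**Figure D5:**
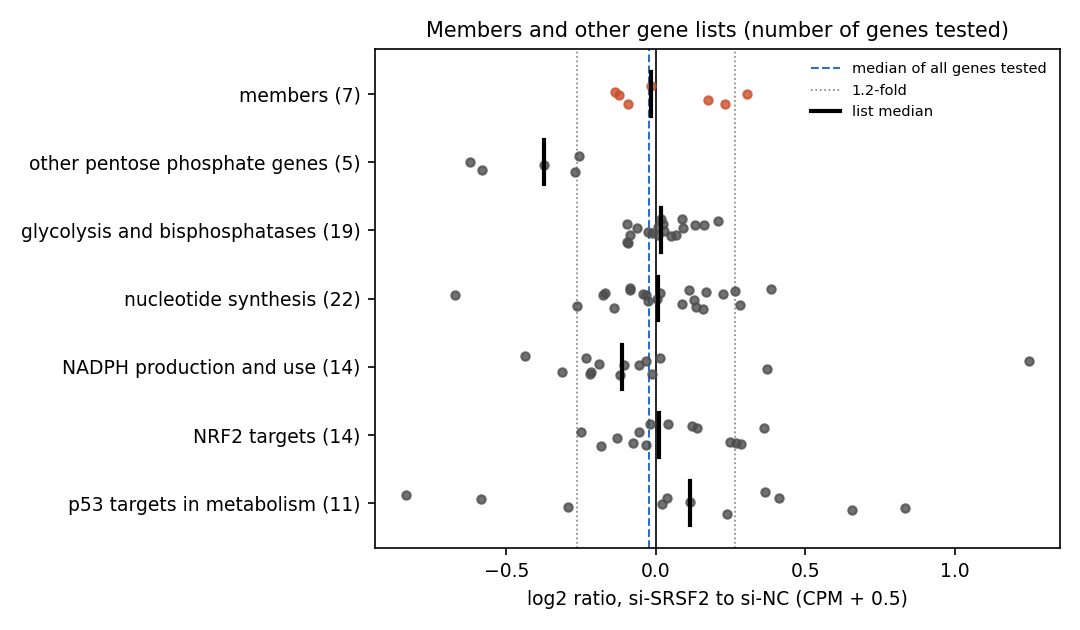
Log2 ratios of si-SRSF2 to si-NC for the 7 members (orange) and the genes of 6 other lists (grey points, 1 gene each, number tested in parentheses), with list medians as black bars, 1.2-fold as dotted lines and the median of all genes tested as a dashed line. All 5 points of the other pentose phosphate genes lie below 0, and the 19 glycolysis genes stay within 1.2-fold.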

How the data were processed

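RNA-seq was made from 2 RKO cultures, si-NC and si-SRSF2, as stranded mRNA libraries with paired reads of 150 bp. Trimmed reads were aligned by the authors with Hisat2 (version 2.0.4 in the submitters' processing notes) to GRCh38, named Ensembl 100 in the methods, and were counted per gene with HTSeq, whose strand mode is not given in the sources used here. The table the authors deposited holds raw read counts by gene symbol, not normalized. The groups came from the sample labels, and each table column was matched to its sample by title.

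TMM factors from edgeR 4.0.16 (R 4.3.3) scaled the counts to CPM, and log2 ratios used a pseudocount of 0.5 CPM, so that the ratios of low genes are understated. The filter kept 12620 genes whose mean was 1 CPM or more, called tested here although no p-value was computed. Each ratio had a 95% Clopper-Pearson interval, given without the pseudocount, and changes of ratios between genes had exact conditional intervals (SciPy 1.17.1). Intervals cover counting error only, in PCR reads without molecular identifiers, and spread between cultures could not be measured. The code was tested on simulated data.

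The members and lists were chosen with earlier results of these data known, so no list or member was given a p-value. Named genes were the members, SRSF2, near copies and overlapping genes, and from each list the 3 largest differences per direction past 1.2-fold, and others named beside them were chosen after their values were seen. Exons, lengths, coordinates and overlaps came from GENCODE release 44, which may differ from the annotation used for counting, since many table symbols have the LOC form, and primer sequences from the study's primer list. ADSS2 was not matched to a table symbol. Junction reads were not used here. Pathway genes outside the lists were not analysed here. Alternatives were scaling by total counts, by upper-quartile factors, by size factors of DESeq2 1.42.0 and by TMM without mitochondrial genes and the 20 most abundant genes, pseudocounts of 0.1 and 2 CPM, no filter, a minimum of 5 CPM, whole intervals past the fold, and RPE plus RPEL1.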

Additional observations from a re-analysis of the deposited data

How the results depend on the processing

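No paired analysis was possible because si-NC and si-SRSF2 had 1 library each, and for the same reason no library could be left out. Of 118 values recomputed under the alternatives, 117 stayed within a band set around the value reported. For single genes and the RPE to RPIA ratio the band was the counting interval, and for counts of genes 1.5 times the value. For list medians it ran between the medians of the genes' lower and upper bounds, which is no interval of the median. Such bands can be wide, as for the p53 targets (-0.10 to 0.49), so staying inside one says little for a median. The exception was the number of members at least 1.2-fold higher, which went from 1 (TIGAR) to 0 when the whole interval had to pass the fold, because that rule is stricter by construction. Upper-quartile factors gave RPE an interval that included no change (-0.16 to 0.02, against -0.18 to -0.0049) and moved PGD and the members' median from -0.02 to 0.01 and the median of all genes tested from -0.02 to -0.0015. Without a filter on low counts the median of the NRF2 targets turned from 0.01 to -0.03 and that of the other pentose phosphate genes went from -0.38 to -0.27, and with a minimum mean of 5 CPM the median of the p53 targets went from 0.12 to 0.24, since the filters change which genes are included. Of the 7 members, PGLS had the fewest counts, 410 and 271, and the widest interval.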
